A study of Mus musculus with 6 samples.

Results

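The genes described here carry glucose from the cell surface to pyruvate and onward to lactate or the mitochondrion. They are 34 genes taken by symbol from a list of glucose transporters, glycolytic enzymes, the enzymes that set phosphofructokinase activity, lactate dehydrogenases and lactate transporters, and the proteins that admit pyruvate to the mitochondrion, out of 26191 genes in the table. All 34 were present, and all 34 passed the filter on low values, which asked for 3 or more of the 6 libraries at 1 FPKM or above. The libraries came from mouse hearts labelled embryonic day 12: 3 control libraries of genotype Mrps5 fl/fl and 3 mutant libraries of genotype Mrps5 fl/fl; cTNT-Cre. Both groups carried the floxed Mrps5 alleles and only the mutants carried Cre, which the troponin T2 promoter drives in cardiomyocytes, so other cell types of the heart keep Mrps5, a protein of the small mitochondrial ribosomal subunit. By the study's account each library was a pool of 5 hearts and controls were littermates. Its text and the labels give the mutants as fl/fl with Cre, whereas a supplementary caption on these hearts prints fl/+ with Cre. FPKM counts the fragments of a transcript per kilobase of its length and scales them to the size of the library, and a gene's value is the sum over its transcripts.

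Glycolysis splits glucose into pyruvate in the cytosol without oxygen. Transporters of the GLUT family let glucose in, hexokinase traps it as a phosphate, phosphofructokinase sets the pace, and pyruvate kinase closes the pathway. Lactate dehydrogenase then makes lactate, which leaves through monocarboxylate transporters, or the mitochondrial pyruvate carrier and pyruvate dehydrogenase pass pyruvate to the citric acid cycle. The embryonic heart relies heavily on glycolysis and turns to fatty acid oxidation after birth. Many steps have several isozymes, some typical of striated muscle and others used widely, which makes the choice of isozyme a property of its own.

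The libraries differed in ways that bear on these genes. Mrps5 was at 9.65, 11.4 and 10.4 FPKM in control replicates 1, 2 and 3, at 5.28 and 7.41 in mutant replicates 1 and 2, and at 10.4 in the library labelled mutant replicate 3, which lay within the control range. Summed FPKM does not separate transcripts with the floxed exon from those without it. Erythroid marker genes, 23 of 25 listed being in the table, took 12.1% to 13.4% of summed FPKM in controls, 23.7% and 22.2% in mutant replicates 1 and 3, and 10.9% in mutant replicate 2. The median log2 fold change of these 23 genes was 0.62, with 22 above 0 and 1 below, and 11 were called higher and 0 lower in mutant hearts (unadjusted p under 0.05 from limma). For cardiomyocyte markers the median was -0.33, all 16 were below 0, and 11 were called lower and 0 higher. Their summed level was 12942 to 15564 FPKM in controls and 10416 to 12492 in mutants, and all 16 passed the filter. Called genes of the other marker lists numbered 1 higher and 2 lower of 10 for endothelium and endocardium, 2 higher and 0 lower of 8 for epicardium, 0 of 9 for cushion mesenchyme and fibroblasts, 0 higher and 3 lower of 6 for smooth muscle, 0 higher and 1 lower of 7 tested for macrophages, and 0 of 7 tested for liver. Of all genes tested, 5.57% were called higher and 9.43% lower. The part of these cell types in the results was not tested. In whole hearts, fewer cells of a type and less RNA per cell cannot be told apart. Absolute read depth is unknown, since FPKM keeps no read numbers. From the commonest ratio among low values of genes with a single row, depth relative to control replicate 1 was estimated at up to 1.39 in the controls and at 1.18, 1.38 and 1.62 in the mutants, each resting on 31 to 48 genes.

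Mutant and control libraries were compared on log2(FPKM + 1) with limma over 13260 genes, and a gene was called at an unadjusted p under 0.05. Of the 34 genes 6 were called higher in mutant hearts, namely Slc2a1, Slc2a3, Slc2a4, Hk2, Aldoa and Gapdh, and 1 was called lower, Pgam2. Among all genes tested, 5.57% were called higher and 9.43% lower, so the 6 of 34 called higher (17.6%) lie above that share. That count moved between 4 and 7 with the setting, and it includes Gapdh, whose level is uncertain. The 1 of 34 called lower moved between 0 and 3 and is not read against its share. The 34 genes were chosen with earlier results of these data known. None of the 34 had an adjusted p under 0.05, which 0.083% of all genes reached; the smallest among them was 0.0684, for Slc2a3. In 9 genes all mutant libraries lay above all controls and in 2 they lay below, where 7.74% and 13% of all genes did so. The leading transcript rows (GENCODE M21, GRCm38) of the called genes span chr4:119108711-119137983 for Slc2a1, chr6:122727809-122742745 for Slc2a3, chr11:69942543-69948149 for Slc2a4, chr6:82725025-82774454 for Hk2, chr7:126795234-126799254 for Aldoa, chr6:125161854-125165773 for Gapdh and chr11:5801640-5803733 for Pgam2. The median log2 fold change of the 34 genes was 0.03, against -0.02 over all genes. Leaving out the library labelled mutant replicate 3 left 6 called higher and moved the genes called lower from 1 to 3, and the genes wholly below the controls from 2 to 9. Over all 13260 genes, the same step moved those called lower from 1251 to 1169 and those wholly below the controls from 1728 to 2337. Without mutant replicate 1 or 2, the genes wholly below the controls numbered 2 and 3 among the 34, and 2253 and 3026 over all genes. The count called lower was 0 without mutant replicate 1, 2 without control replicate 2 and 3 with quantile normalization. Over all genes those settings gave 962, 1053 and 1168 called lower.

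**Figure D1:**
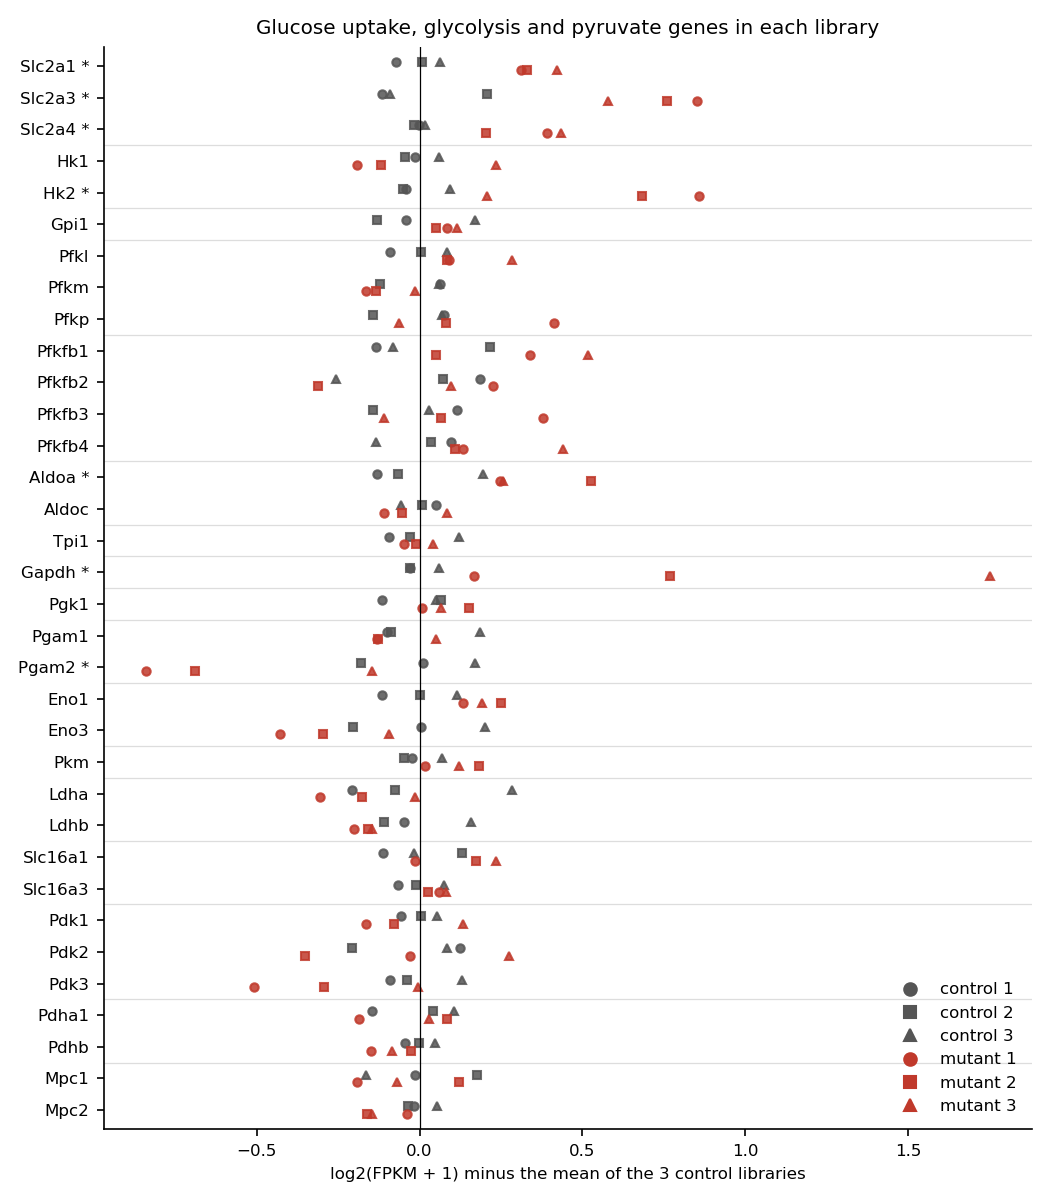
Level of each of the 34 genes in each library, as log2(FPKM + 1) minus the mean of the 3 control libraries, with genes in pathway order, grey lines between steps and an asterisk at an unadjusted p under 0.05 from limma. The 3 glucose transporters and Hk2 sit to the right of every control in every mutant library, while most enzymes between phosphofructokinase and the pyruvate carrier mix with the controls.

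Entry of glucose showed the clearest difference. Slc2a1 (ENSMUSG00000028645) encodes GLUT1, the transporter for basal uptake that the embryonic heart and red cells use. It was at 90.7, 95.8 and 99.7 FPKM in control replicates 1, 2 and 3 and at 119, 120 and 128 in mutant replicates 1, 2 and 3. All mutant libraries lay above all controls, and the spread within each group was small beside the gap. The mean rose from 95.4 ± 4.52 (SD, n = 3) to 122 ± 5.09 (SD, n = 3), a log2 fold change of 0.35 ± 0.08 (SE), with an unadjusted p of 0.0023 and an adjusted p of 0.148 from limma.

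Slc2a3 (ENSMUSG00000003153), the high-affinity transporter GLUT3, was the member with the smallest p. Its FPKM was 10.7, 13.7 and 10.9 in control replicates 1, 2 and 3 and 21.9, 20.5 and 18.0 in the mutants. The lowest mutant library was above the highest control library. The log2 fold change was 0.73 ± 0.12 (SE), from 11.8 ± 1.65 to 20.1 ± 2.00 (SD, n = 3 each), with an unadjusted p of 0.00023 from limma.

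Slc2a4 (ENSMUSG00000018566) encodes GLUT4, the insulin-responsive transporter of muscle and fat. It stood at 7.92, 7.82 and 8.03 FPKM in controls and at 10.7, 9.27 and 11.1 in mutants. Here mutant replicate 2 was the lowest of the mutants and still above the controls. The log2 fold change was 0.34 ± 0.09 (SE), and the adjusted p was 0.172 from limma. With the erythroid level as a covariate it fell just short of the threshold, at 0.23 (unadjusted p = 0.0536 from limma), and Slc2a1 and Slc2a3 stayed called.

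Together the 3 transporters summed to 109, 117 and 119 FPKM in controls and to 151, 150 and 157 in mutants. The sum was higher by 0.41 on the log2 scale, without overlap. With 3 libraries against 3, the exact permutation test cannot give a two-sided p under 0.1, which is the value here (0.3 after adjustment over the 12 steps with several genes). GLUT1 supplied most of the sum in both groups, 82.9% ± 1.17 in controls and 80.03% ± 1.54 in mutants, and GLUT3 supplied 10.2% ± 1.28 and 13.2% ± 1.58 (SD, n = 3 each).

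Hexokinase traps glucose in the cell, and Hk2 was called while Hk1 was not. Hk1, the widely expressed form, was at 65.2, 63.9 and 68.8 FPKM in controls and at 57.6, 60.6 and 77.8 in mutants, with a log2 fold change of -0.03 ± 0.12 (SE). Hk2 (ENSMUSG00000000628), the inducible form of muscle that binds mitochondria, was at 19.0, 18.9 and 21.0 FPKM in controls and at 36.4, 32.0 and 22.8 in mutants. Mutant replicates 1 and 2 stood well above the controls, and mutant replicate 3, the library with Mrps5 at the control level, stood only just above them. The log2 fold change of Hk2 was 0.58 ± 0.16 (SE, limma adjusted p = 0.17), 0.77 without mutant replicate 3 and 0.44 without mutant replicate 1. The share of Hk2 in the summed hexokinase level was 22.6%, 22.8% and 23.4% in controls and 38.7%, 34.6% and 22.7% in mutants, so that the share overlapped through mutant replicate 3 alone. The log2 ratio of Hk2 to Hk1 did not pass its own test (exact permutation p = 0.4, adjusted p = 0.7 over 14 isozyme pairs).

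The stretch of DNA before the start of these genes is shown for the members called in the comparison that have a single start in the table of promoters. The windows are the 250 bases before the RefSeq start (build GRCm38.p6), printed in the direction of transcription. Capitals mark ACGTG, the core bound by hypoxia-inducible factors, read on both strands, so that a match on the other strand reads CACGT. The windows lie at chr4:119108495-119108744 on the plus strand for Slc2a1, and on the minus strand at chr6:82774455-82774704 for Hk2, chr6:125165774-125166023 for Gapdh and chr11:5803797-5804046 for Pgam2, the muscle mutase gene that was lower.
Slc2a1: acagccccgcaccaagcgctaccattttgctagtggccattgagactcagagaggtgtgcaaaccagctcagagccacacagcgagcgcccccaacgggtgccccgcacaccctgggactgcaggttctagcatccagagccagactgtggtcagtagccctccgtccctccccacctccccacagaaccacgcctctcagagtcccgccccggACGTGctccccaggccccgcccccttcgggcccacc
Hk2: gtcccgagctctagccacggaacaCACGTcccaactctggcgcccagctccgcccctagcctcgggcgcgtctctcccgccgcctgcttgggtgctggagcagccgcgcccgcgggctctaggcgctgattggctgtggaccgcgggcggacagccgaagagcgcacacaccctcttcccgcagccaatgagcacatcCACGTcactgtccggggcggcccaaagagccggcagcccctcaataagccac
Gapdh: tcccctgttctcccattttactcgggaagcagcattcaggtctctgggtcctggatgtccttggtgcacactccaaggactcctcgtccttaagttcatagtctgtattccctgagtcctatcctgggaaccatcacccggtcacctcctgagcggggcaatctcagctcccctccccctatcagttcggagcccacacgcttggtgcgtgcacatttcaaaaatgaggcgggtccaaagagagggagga
Pgam2: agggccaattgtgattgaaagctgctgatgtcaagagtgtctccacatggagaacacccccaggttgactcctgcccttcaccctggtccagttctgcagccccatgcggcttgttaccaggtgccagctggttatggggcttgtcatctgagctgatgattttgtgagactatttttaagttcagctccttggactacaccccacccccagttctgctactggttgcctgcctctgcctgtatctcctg

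The Slc2a1 window held 1 match, the Hk2 window 2, and the Gapdh and Pgam2 windows 0 each. Of the 34 genes 32 had a window, Slc2a3 and Slc2a4 having none, and 15 of the 32, or 46.9%, held ACGTG in at least 1 window, against 18.5% of 27025 genes with windows of the same length. CACGTG, the E-box that MYC and ChREBP recognize and which contains ACGTG, was found in 6 of the 32 (18.8%) and in 6.86% of all genes. TGATGNAAN, the composite element of ATF4 and its C/EBP partners, was in 0 of the 32 and in 3.89% of all genes. Members have more windows per gene than the whole table has, which raises such a share. Counted by window, ACGTG was in 36.5% of the 52 windows of members and in 16.6% of all 32851 windows, and CACGTG was in 11.5% and 6.02%. These are matches of letters in a short window and describe sequence only.

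Between glucose phosphate and the triose phosphates, few enzymes differed. Gpi1, which isomerizes the hexose phosphate, was at 134 to 165 FPKM in controls and 152 to 158 in mutants. Phosphofructokinase, the committed step, is assembled from liver (Pfkl), muscle (Pfkm) and platelet (Pfkp) subunits, and none of these genes was called. Pfkl lay higher in all mutant libraries (43.02 to 49.5 FPKM) than in all controls (38.0 to 43.01), though mutant replicate 2 and control replicate 3 were nearly equal. The difference missed the threshold (log2 fold change 0.15 ± 0.09, SE, unadjusted p = 0.129 from limma). The summed level of the 3 subunits was 100 ± 5.29 FPKM in controls and 107 ± 4.40 in mutants (SD, n = 3 each).

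Of the 3 ratios between phosphofructokinase subunits, 1 separated the groups. The log2 ratio of the muscle to the liver subunit was -0.40, -0.68 and -0.58 in controls and -0.81, -0.77 and -0.85 in mutants. All mutant libraries were below all controls, and the ratio differed by -0.26 (exact permutation p = 0.1, adjusted p = 0.35 over 14 isozyme pairs). Pfkp reached 43.2 FPKM in mutant replicate 1 and 30.8 to 34.2 in the other mutants, and its ratio to the liver subunit overlapped between the groups (difference -0.0095, exact permutation p = 1). The ratio of the muscle to the platelet subunit differed by -0.25 and overlapped as well (exact permutation p = 0.4, adjusted p = 0.7).

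The PFKFB genes encode enzymes that make and remove the activator of phosphofructokinase. Pfkfb1, Pfkfb2, Pfkfb3 and Pfkfb4 were low, with control means between 1.51 and 8.21 FPKM, and none was called. Pfkfb1 had a log2 fold change of 0.30 ± 0.15 (SE) and was called when either control replicate 2 or mutant replicate 2 was left out. Pfkfb4 lay above the controls in all mutant libraries, from 1.70 to 2.39 against 1.28 to 1.68 FPKM, near the filter on low values.

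Aldolase cleaves the hexose into trioses, and Aldoa (ENSMUSG00000030695) made up nearly all of it. Aldoa was at 382, 400 and 480 FPKM in control replicates 1, 2 and 3 and at 497, 603 and 500 in the mutants. The groups did not overlap, but control replicate 3 came close to mutant replicate 1. The log2 fold change was 0.34 ± 0.13 (SE), with an unadjusted p of 0.0285 and an adjusted p of 0.28 from limma. The call was lost without control replicate 1, without control replicate 2 and without mutant replicate 2, and the log2 fold change then ranged between 0.25 and 0.44 over the 6 libraries left out in turn. Aldoc, the brain form, was at 2.14 to 2.59 FPKM throughout. Tpi1, which interconverts the trioses, was at 288 ± 22.5 FPKM in controls and 287 ± 9.06 in mutants (SD, n = 3 each).

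Gapdh (ENSMUSG00000057666), which oxidizes glyceraldehyde phosphate, was called higher on values that do not behave like those of its neighbours. It was at 44.0, 44.0 and 46.9 FPKM in controls and at 50.5, 77.2 and 154 in mutants. The controls were close together and the mutants spread widely, and the highest value was in the library with Mrps5 at the control level. The log2 fold change was 0.89 ± 0.33 (SE, limma adjusted p = 0.271), 0.47 without mutant replicate 3 and 1.26 without mutant replicate 1. The call was lost without control replicate 1 and without control replicate 2, where the log2 fold change stayed at 0.88 in both. Gapdh was also listed far below the enzymes on either side of it, Tpi1 and Pgk1, whose control means were 288 and 315 FPKM. The table lists 0 rows of a pseudogene type, Gapdh has many near-identical processed copies in the mouse genome, and how their reads were assigned is not given in the sources used here, so its level is uncertain. In mutant replicate 2 the estimate lay in another row, Gapdh-202, at 75.7 FPKM, with Gapdh-203 at 0.14, while in the other libraries Gapdh-203 held 41.6 to 149 FPKM. With the most abundant row in place of the sum, the log2 fold change was -1.07.

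**Figure D2:**
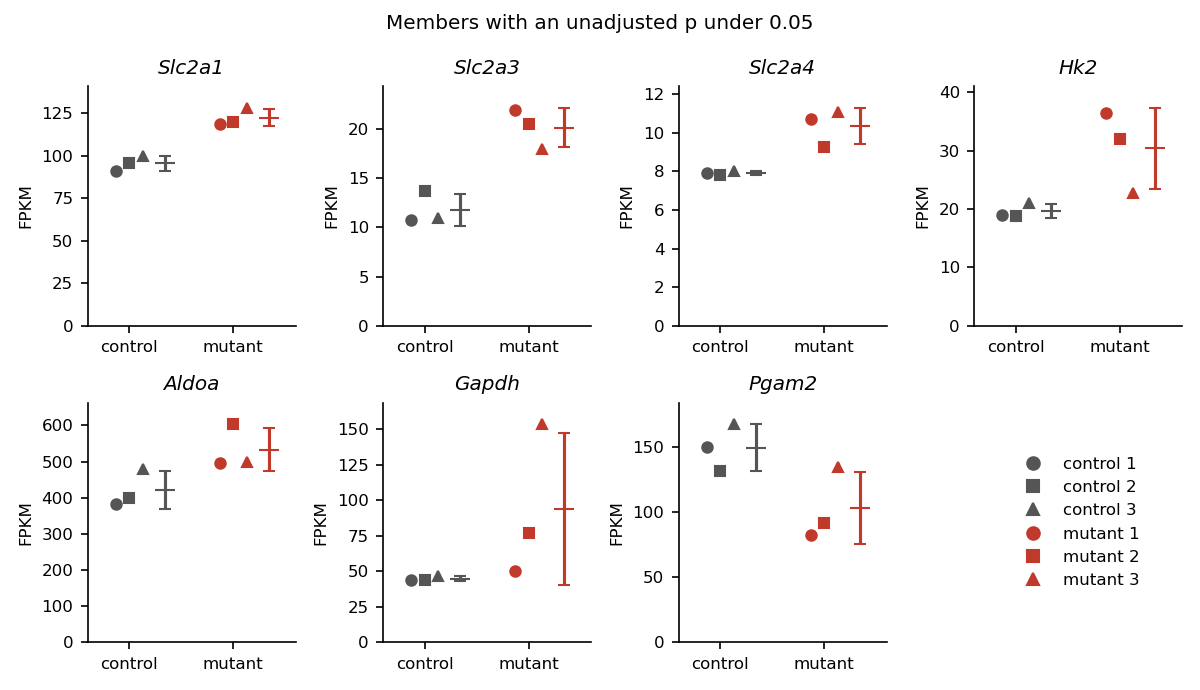
FPKM in each library of the 7 members with an unadjusted p under 0.05 from limma, with the mean and SD of each group beside the points (n = 3 each, axes from 0). The transporters separate from the controls in every library, Hk2 and Pgam2 have mutant replicate 3 nearest to the controls, and Gapdh has it farthest, at 154 FPKM.

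Pgk1, the kinase that makes the first ATP of the pathway, was at 315 ± 21.7 FPKM in controls and 331 ± 16.7 in mutants (SD, n = 3 each). The next reactions have a muscle and a widely used isozyme each. Pgam1, the widely used mutase, was at 148 to 181 FPKM in controls and 145 to 165 in mutants. Pgam2 (ENSMUSG00000020475), the muscle mutase, was at 150, 131 and 167 FPKM in controls and at 82.6, 91.8 and 134 in mutants. Mutant replicates 1 and 2 lay below all controls, and mutant replicate 3 lay just above control replicate 2. The log2 fold change of Pgam2 was -0.56 ± 0.18 (SE, limma adjusted p = 0.222), and -0.76 without mutant replicate 3. Without mutant replicate 1 it was no longer called, at -0.42. Cardiomyocyte markers, with a median of -0.33, were lower in the same libraries, and their part in the Pgam2 result was not tested.

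Enolase likewise has a widely used and a muscle form. Eno1, the widely used form, was at 363, 393 and 426 FPKM in controls and at 431, 468 and 449 in mutants, all above the controls, with a log2 fold change of 0.19 ± 0.10 (SE) that did not pass the threshold. Eno3, the muscle form, was at 60.1, 51.9 and 69.0 in controls and at 44.3, 48.7 and 56.1 in mutants, with a log2 fold change of -0.27 ± 0.13 (SE). It overlapped with the controls through mutant replicate 3 and was called without that library, without control replicate 2, under the replicate block and under quantile normalization. Eno1 was called when erythroid genes were taken out and libraries rescaled, at 0.22.

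Set against the widely used isozyme of the same library, the muscle forms lay lower in all mutant libraries in both steps. All 16 cardiomyocyte markers were also below 0, with a median log2 fold change of -0.33. In whole hearts, isozyme choice within cells and the mix of cell types cannot be told apart, here or for the phosphofructokinase subunits. The log2 ratio of Pgam2 to Pgam1 was 0.01, -0.19 and -0.11 in controls and -0.80, -0.66 and -0.29 in mutants. That of Eno3 to Eno1 was -2.57, -2.90 and -2.61 in controls and -3.25, -3.24 and -2.98 in mutants. Neither ratio overlapped between the groups, and the differences were -0.49 and -0.46 (exact permutation p = 0.1 for each, adjusted p = 0.35). Of the 14 ratios examined, 4 did not overlap: these 2, the muscle to liver phosphofructokinase ratio, and Pdk3 to Pdk1. Among single genes tested, 7.74% lay wholly above the controls and 13% wholly below. No such share was computed for other gene pairs, and the count of 4 is not read as a pattern. The Hk2 to Hk1 ratio differed by 0.61, but mutant replicate 3, at -1.73, lay at the control level of -1.73 to -1.67.

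**Figure D3:**
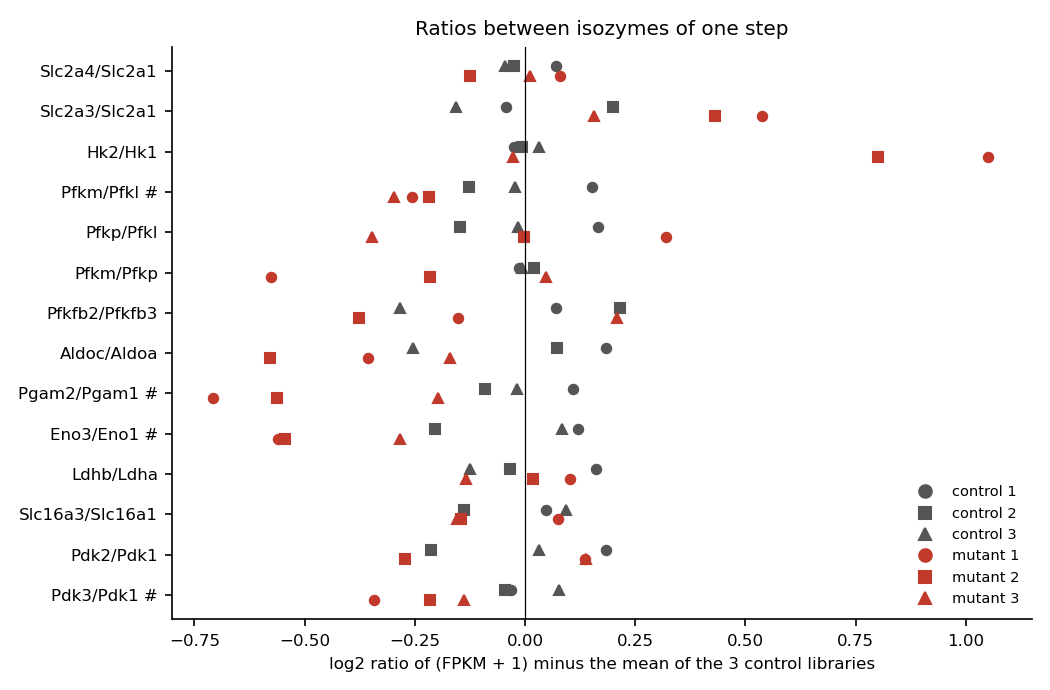
Log2 ratio between isozymes of a step in each library, minus the mean of the 3 control libraries, with a hash mark where the groups do not overlap. Pgam2/Pgam1, Eno3/Eno1, Pfkm/Pfkl and Pdk3/Pdk1 lie to the left in all mutant libraries, and Hk2/Hk1 lies far to the right in mutant replicates 1 and 2 only.

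Pyruvate kinase is made from Pkm, whose transcripts keep either of a pair of alternative exons, giving enzymes that differ in their regulation. The M1 form of adult heart and muscle uses the upstream exon, and the M2 form, typical of embryonic and proliferating tissue, uses the downstream exon. Each is 167 bases long and lies within the coding sequence on the plus strand (GRCm38, GENCODE M21): M1 at chr9:59675029-59675195 and M2 at chr9:59675568-59675734. The exons are printed because they are the only coding difference between the 2 main Pkm rows. Capitals mark the 64 positions at which they differ, and the other 103 positions (61.7%) are identical.
M1 exon, Pkm-202: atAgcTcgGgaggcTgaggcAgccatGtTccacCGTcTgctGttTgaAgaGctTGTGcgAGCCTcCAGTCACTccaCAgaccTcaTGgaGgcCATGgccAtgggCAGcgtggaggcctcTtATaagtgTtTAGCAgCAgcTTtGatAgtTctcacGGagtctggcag
M2 exon, Pkm-201: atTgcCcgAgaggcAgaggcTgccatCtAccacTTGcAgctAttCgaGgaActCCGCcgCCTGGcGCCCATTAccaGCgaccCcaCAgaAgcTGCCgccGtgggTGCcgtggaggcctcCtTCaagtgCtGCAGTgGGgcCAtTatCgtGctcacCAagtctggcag

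Pkm as a whole was at 371, 365 and 395 FPKM in controls and at 381, 427 and 409 in mutants (log2 fold change 0.11 ± 0.10, SE). The M1 row, Pkm-202, was estimated at 216, 216 and 243 FPKM in controls and at 187, 277 and 288 in mutants. The M2 row, Pkm-201, was at 128, 128 and 131 in controls and at 170, 132 and 110 in mutants. The M1 row thus made up 62.8%, 62.7% and 64.9% of both in controls and 52.4%, 67.8% and 72.5% in mutants. The controls lay close together (SD 1.25 percentage points), the mutants lay on both sides of them, and the means differed by 0.747 percentage points (exact permutation p = 1). Shares of transcript rows are estimates from reads that the rows mostly share, and exon reads were not analysed here.

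At the fork after pyruvate, Ldha, which favours lactate production, was at 498, 547 and 700 FPKM in controls and 466, 509 and 570 in mutants, the highest control mean of the 34 genes. Ldhb, the heart form that favours the reverse reaction, was at 110, 106 and 128 in controls and 99.2, 102 and 103 in mutants, all below the controls. Neither passed the threshold, with log2 fold changes of -0.16 and -0.17. The mean log2 ratio of Ldhb to Ldha was -2.33 ± 0.12 in mutants and -2.32 ± 0.15 in controls (SD, n = 3 each).

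The Ldha sum hides a large shift between rows. Ldha-202 held 479, 452 and 442 FPKM in controls and 493 and 562 in mutant replicates 2 and 3, but 108 in mutant replicate 1. In that library Ldha-201 was listed at 331 FPKM, and it was listed at 0 in every other library. The rows share 1508 bases, and 80 bases are particular to Ldha-202 and 258 to Ldha-201. Ldha-206, a short row of 4 exons, was at 12.8, 90.9 and 252 FPKM in controls and at 2.38, 12.3 and 5.35 in mutants, and its log2 fold change was -3.38 ± 1.103 (SE) with an adjusted p of 0.436 from limma over transcript rows.

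**Figure D4:**
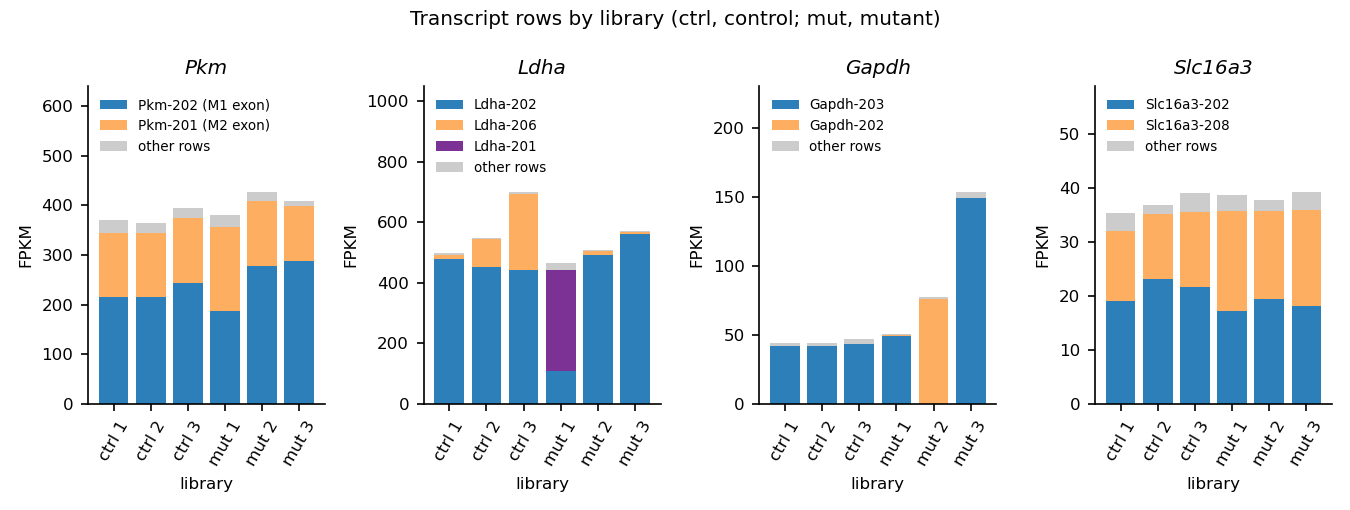
FPKM of the main transcript rows of Pkm, Ldha, Gapdh and Slc16a3 in each library, stacked, with all other rows of the gene in grey (axes from 0). Mutant replicate 1 carries Ldha in another row than the other libraries and mutant replicate 2 carries Gapdh in another row, while the Slc16a3 rows shift by a few FPKM in all 3 mutant libraries.

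Of 147 transcript rows of the 34 genes, all matched to GENCODE M21 by identifier, 67 were tested, of which 7 were called higher and 4 lower. Among all 20370 rows tested, 4.02% were called higher and 6.22% lower, and no row of these genes had an adjusted p under 0.05. The main rows of Slc2a1, Slc2a3, Slc2a4, Hk2 and Pgam2 went with their genes. Eno1-201 was called higher (log2 fold change 0.22), as was Pfkfb1-206 (0.46), and the minor rows Eno3-201 (-0.77) and Pkm-207 (-0.89) were called lower with Ldha-206. In 5 of the 34 genes, Gapdh, Ldha, Mpc1, Pfkfb2 and Slc16a3, the leading row was not the same in all 6 libraries. The next Hk1 rows in order of level stayed under 5 FPKM beside a leading row of 54.0 to 71.8 FPKM, and Slc2a1 was carried by Slc2a1-201 with 83.0 to 126 FPKM.

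Slc16a3, encoding the lactate exporter MCT4, was such a case. Its sum was 35.4 to 39.1 FPKM in controls and 37.8 to 39.2 in mutants. The row Slc16a3-208, with the longer transcript of 4335 bases, was at 13.02, 12.1 and 13.9 FPKM in controls and at 18.4, 16.3 and 17.8 in mutants, and was called higher at 0.40 ± 0.09 (SE, limma adjusted p = 0.348). Slc16a3-202, of 2386 bases with an equal coding length of 1410 bases, was at 19.0, 23.1 and 21.7 in controls and 17.3, 19.5 and 18.0 in mutants. Its groups overlapped through mutant replicate 2, and it was not called. Slc16a1, encoding MCT1, which carries lactate both ways, was at 35.1 ± 3.09 FPKM in controls and 38.6 ± 3.48 in mutants (SD, n = 3 each).

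The route of pyruvate into the mitochondrion gave no called gene. Pdk1, Pdk2 and Pdk3 encode kinases that switch pyruvate dehydrogenase off. Pdk3 was at 39.4, 40.8 and 46.0 FPKM in controls and at 29.2, 34.05 and 41.9 in mutants, with a log2 fold change of -0.27 ± 0.13 (SE). Mutant replicate 3 again overlapped with the controls, and without it Pdk3 was called, at -0.40. It was also called under the replicate block and under quantile normalization, at -0.27 and -0.29. The log2 ratio of Pdk3 to Pdk1 was 0.38, 0.37 and 0.49 in controls and 0.07, 0.20 and 0.27 in mutants, a difference of -0.23 without overlap (exact permutation p = 0.1, adjusted p = 0.35). Pdk1, at 30.1 to 32.5 FPKM in controls and 27.9 to 34.5 in mutants, and Pdk2, at 11.1 to 14.2 and 9.91 to 15.8, spread widely among the mutants.

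Pdha1 and Pdhb, the subunits of the decarboxylating component of pyruvate dehydrogenase, were at 78.1 ± 6.99 and 109 ± 3.56 FPKM in controls and at 76.8 ± 7.48 and 103 ± 4.45 in mutants (SD, n = 3 each). Mpc1 and Mpc2 form the carrier that takes pyruvate across the inner membrane. Mpc2 was at 30.8, 30.4 and 32.5 FPKM in controls and at 30.4, 27.8 and 28.2 in mutants, below the controls in every library though by a narrow margin in mutant replicate 1 (log2 fold change -0.12 ± 0.08, SE). Their sum was 47.7 ± 1.18 FPKM in controls and 44.6 ± 0.984 in mutants (SD, n = 3 each), without overlap. Of the 12 steps with several genes, 4 had sums that did not overlap: glucose uptake, hexokinase and aldolase were higher and the pyruvate carrier lower. Each of the 4 had an exact permutation p of 0.1 (adjusted p = 0.3). Among single genes tested, 7.74% lay wholly above the controls and 13% wholly below, and the count of 4 is not read as a pattern. The hexokinase and aldolase sums hold the called genes Hk2 and Aldoa.

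Blood content of the pools was set beside these values through mutant replicate 2, whose erythroid share of 10.9% was under that of every control. In that library alone, the log2 value exceeded the control mean by 0.33 for Slc2a1, 0.76 for Slc2a3, 0.20 for Slc2a4, 0.68 for Hk2, 0.53 for Aldoa and 0.77 for Gapdh, and was -0.69 for Pgam2. The 7 genes were called with this library among the mutants, so these values are a description and no separate test. In mutant replicate 3, with an erythroid share of 22.2%, the same quantities were 0.42, 0.58, 0.43, 0.21, 0.26, 1.75 and -0.15. With erythroid genes taken out and libraries rescaled to an equal sum, 7 genes were called higher and 1 lower, beside 974 and 1044 of all 13251 genes. With the erythroid level as a covariate, 4 were called higher and 1 lower, beside 791 and 701 of all 13260 genes, where the comparison without it gave 739 and 1251. Slc2a4 and Gapdh then missed the threshold, with log2 fold changes of 0.23 and 0.72 beside 0.34 and 0.89 without the covariate.

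The 34 genes were low or high in different libraries. Control replicate 3 held the highest value of 11 genes and mutant replicate 3 that of 12, while mutant replicate 1 held the lowest value of 13 and control replicate 1 that of 10. The members summed to 0.774% to 0.882% of all FPKM in controls and to 0.714% to 0.879% in mutants. Of FPKM outside the erythroid genes they made up 0.883% to 1.004% in controls and 0.936% to 1.046% in mutants. The control libraries varied by a median of 8.47% (SD over mean) per gene, from 1.37% for Slc2a4 to 18.2% for Ldha.

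Genes of adjoining pathways are given by list, and those named were called and did not overlap, with up to 4 per list and the exceptions stated. Among other glucose transporters and glucose kinases, 3 of 11 passed the filter. Txnip, an inhibitor of glucose uptake, was at 52.3, 40.8 and 50.1 FPKM in controls and at 24.8, 31.2 and 29.0 in mutants, a log2 fold change of -0.73 ± 0.12 (SE, limma adjusted p = 0.0779). Its mutant values lay wholly below the controls, while those of the 3 glucose transporters lay above. Adpgk, a glucokinase that uses ADP, was higher by 0.37.

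Of the other isozymes and pyruvate enzymes, 16 of 24 passed the filter, and 4 were called higher and 0 lower. Of all genes tested, 5.57% were called higher and 9.43% lower. Eno2, the neuronal enolase, was at 1.51, 1.08 and 1.32 FPKM in controls and at 9.94, 7.85 and 2.13 in mutants (log2 fold change 1.55 ± 0.40, SE). As for Hk2, mutant replicate 3 was nearest to the controls. Pklr, the pyruvate kinase of liver and red cells, was at 11.8, 22.1 and 9.28 in controls and at 27.9, 26.6 and 41.2 in mutants, a log2 fold change of 1.16. Pcx, which carboxylates pyruvate to oxaloacetate, was higher by 0.57. The fourth, Bpgm, named after its values were seen as the mutase of red cells, was at 45.1, 36.6 and 41.0 FPKM in controls and 78.9, 41.9 and 58.5 in mutants, overlapping only in the library with the low erythroid share.

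Of 15 glycogen genes tested, 6 were called lower, where 9.43% of all genes were, and 1 was called higher (Gys1, 0.28, whose groups overlapped). Their median log2 fold change was -0.22, beside -0.02 over all genes. Pygb, the brain type phosphorylase that frees glucose from glycogen, changed by -0.33, Stbd1, a glycogen-binding protein, by -0.23, and Phka1 and Phka2, subunits of phosphorylase kinase, by -0.30 and -0.49. Each lay below the controls in all mutant libraries. Pygm, the muscle phosphorylase, is listed at 0 in mutant replicate 2 and at 12.1 to 22.4 FPKM in the other libraries, and is named after its values were seen.

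In the pentose phosphate pathway, 3 of 8 genes were called higher and 1 lower, where 5.57% and 9.43% of all genes tested were. Tkt, the transketolase, was higher by 0.30 and Pgls, the lactonase, was lower at -0.25, without overlap. Of gluconeogenesis, 2 of 6 genes passed the filter and both were called higher, too few to set against the share over all genes. Pck2, the mitochondrial phosphoenolpyruvate carboxykinase, was at 7.72, 7.16 and 8.20 FPKM in controls and at 21.9, 20.8 and 11.2 in mutants, a log2 fold change of 1.07 ± 0.22 (SE, limma adjusted p = 0.124), and G6pc3, a phosphatase of glucose phosphate, was higher by 0.34.

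Among transcription regulators of glucose metabolism, 2 of 11 tested were called higher and 2 lower, where 5.57% and 9.43% of all genes tested were. Myc, which activates many glycolytic genes, was at 8.56, 12.4 and 8.99 FPKM in controls and at 13.8, 17.1 and 15.1 in mutants (log2 fold change 0.58). Klf15, a regulator of cardiac fuel use, was at 1.73, 1.498 and 1.72 in controls and at 3.56, 3.12 and 2.202 in mutants (0.56). Ppargc1a and Esrra, which promote oxidative metabolism, were lower at -0.29 and -0.24. No gene of these adjoining lists had an adjusted p under 0.05.

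**Figure D5:**
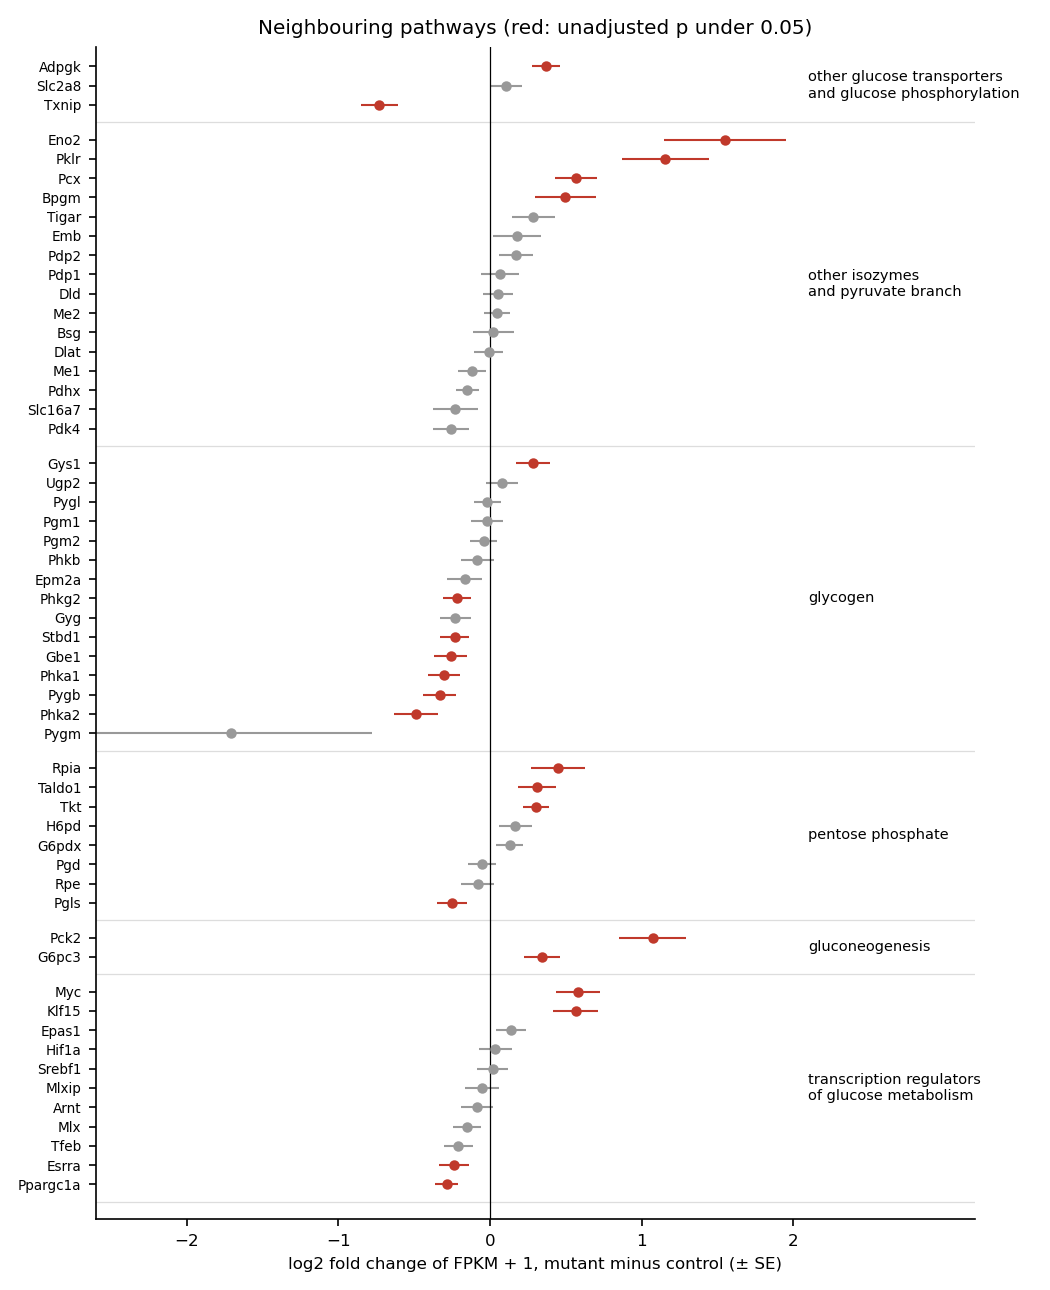
Log2 fold change of FPKM + 1, mutant minus control, with its standard error from limma, for the tested genes of 6 adjoining pathway lists, red where the unadjusted p was under 0.05. Glycogen genes lie mostly left of 0 and Eno2, Pklr and Pck2 far to the right; Pygm, at -1.71, reflects a library in which it is listed at 0.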

How the data were processed

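Hearts of 6 mouse embryo pools were profiled by RNA sequencing. Per the labels, ribosomal RNA was removed and libraries kept strand, whereas the study's methods describe selection of mRNA with poly-T beads. The authors deposited FPKM values, 1 per transcript and library (60776 rows). The submitters' processing notes name Bowtie2 2.2.8, HISAT2, StringTie 1.3.1, Cuffdiff 2.1.1 and the build mm9 without giving their roles, and the handling of reads shared by gene copies is not given in the sources used here. Replicate numbers come from the labels.

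Rows were summed per gene identifier. Values of log2(FPKM + 1) were fitted with limma 3.58.1 in R 4.3.3 (trended variance, mutant against control) on 13260 genes that reached 1 FPKM in 3 or more libraries, with Benjamini-Hochberg adjustment over all of them. The pseudocount understates changes of low genes. Transcript rows were fitted in the same way. Step sums and isozyme ratios were tested by exact two-sided permutation of the 6 libraries. The fit was tested on simulated data. Aldoa was taken from the gene identifier with the highest mean. Named are all members, and from each pathway list the called genes without overlap, up to 4 by smallest p. A gene of the glycogen list was left out of its counts and median and is not reported here. Members and lists were chosen with earlier results of these data known. Alternatives covered pseudocount, filter, scaling, blood content, transcript rows, replicate number and each library left out. Coordinates and promoters are from GRCm38 (GENCODE M21, RefSeq). Libraries that share a genotype are separate pools, so p-values measure the spread between pools.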

Additional observations from a re-analysis of the deposited data

How the results depend on the processing

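Slc2a1, Slc2a3 and Hk2 kept their direction and their call under all 16 alternatives, with log2 fold changes of 0.32 to 0.40, 0.67 to 0.83 and 0.44 to 0.77. In one alternative, mutant replicate 2 alone against the controls, the spread comes from the controls only, and its calls assume that the lone library varies like them. Slc2a4 lost its call under 2, Pgam2 under 1, Aldoa under 5 and Gapdh under 4, and Gapdh reversed to -1.07 with the most abundant row. Genes called lower numbered 3 with the replicate block and with quantile normalization (main value 1), where all genes called lower numbered 1458 and 1168 (main value 1251), and 0 to 3 with a library left out. Genes wholly below the controls numbered 1 with median centring and with erythroid genes taken out (main value 2), and 2 to 9 with a library left out. Over all genes they numbered 1668 and 1392 (main value 1728), and 2210 to 3026 with a library left out. Transcript rows called numbered 7 to 12 with a library left out (main value 11). The replicate number entered as a block added Eno3 and Pdk3 to the called genes and left 6 called higher; libraries sharing a number correlated in their deviations at 0.217, 0.11 and 0.0901, each best with its own number, and the labels give no shared litter or day.

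The reversals otherwise concern values that were not called. With the most abundant row they were Hk1 (0.0069), Pfkp (-0.071), Slc16a3 (-0.21), Pfkfb2/Pfkfb3 (0.13) and Ldhb/Ldha (0.43). With mutant replicate 2 alone against the controls they were Pfkfb2 (-0.31), Pdha1 (0.083), Mpc1 (0.12), the PFKFB sum (-0.034), the pyruvate dehydrogenase sum (0.020), Ldhb/Ldha (0.018) and Pdk2/Pdk1 (-0.27). With the erythroid covariate they were Pfkfb2 (-0.26), Pdha1 (0.053) and Mpc1 (0.047). With erythroid genes taken out they were Hk1 (0.0012), Tpi1 (0.022), Pdha1 (0.0016) and Pdk2/Pdk1 (-0.00059). Aldoc reversed with quantile normalization (0.067), Tpi1 with median centring (0.0053), and with a pseudocount of 0.1 Slc2a4/Slc2a1 (0.019) and Pdk2/Pdk1 (-0.0021). With each library left out in turn the ranges were -0.16 to 0.058 for Hk1, -0.12 to 0.16 for Pfkfb2, -0.023 to 0.22 for Pfkfb3, -0.080 to 0.016 for Aldoc, -0.052 to 0.056 for Tpi1, -0.13 to 0.024 for Pgam1, -0.12 to 0.028 for Pdk1, -0.19 to 0.12 for Pdk2, -0.098 to 0.056 for Pdha1 and -0.13 to 0.042 for Mpc1. For ratios they were -0.057 to 0.045 for Slc2a4/Slc2a1, -0.17 to 0.16 for Pfkp/Pfkl, -0.26 to 0.028 for Pfkfb2/Pfkfb3, -0.067 to 0.076 for Ldhb/Ldha and -0.11 to 0.14 for Pdk2/Pdk1. The cause of these changes was not tested. Pfkfb4 and Aldoc were not tested at a mean FPKM of at least 5. Absolute depth is unknown, so no value carries a counting interval.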
